A study of Mus musculus with 5 samples.

Results

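The genes described are imprinted genes of neurons, taken as every probe that the platform annotation assigns to Ndn, Magel2, Mkrn3, Snrpn, Snurf, Ube3a, Peg3, Meg3 or Nnat. They came to 25 of the 45281 probes on the array and 8 of 19057 named genes, since none of the probes carries the symbol Snrpn. They lie in the Prader-Willi and Angelman domain (Ndn, Magel2, Mkrn3, Snurf and Ube3a, 14 probes) or in other imprinted regions (Peg3, Meg3 and Nnat, 11 probes). The set was chosen by symbol, but it was also selected on measured values, since the KO and WT signals of Ndn and Magel2 in an earlier comparison of these same arrays led to it. For this reason the differences between genotypes are given as a description with no test of the genes.

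The study measured total RNA of cells sorted from the cerebral cortex of C57BL/6J mice that carry PV-GFP, a green fluorescent marker of parvalbumin-expressing interneurons, on single-colour Illumina bead arrays. The WT group was PV-GFP with Clock+/+ (3 arrays, mice of 61, 64 and 64 days, replicates 1, 2 and 3), and the KO group was PV-GFP with Clock-/- (2 arrays, mice of 61 and 60 days, replicates 1 and 3). Every sample carried the fluorescent marker and came from zeitgeber time 16 h, a clock hour counted from lights-on. The labels name no Cre line and do not say whether a sample is 1 animal or a pool, so any p-value measures the spread between these samples.

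Imprinted genes are transcribed mainly from the paternal or mainly from the maternal chromosome, a choice set by DNA methylation laid down in the germ line. In the Prader-Willi and Angelman domain, Ndn, Magel2, Mkrn3 and the Snurf-Snrpn transcript come from the paternal copy, and Ube3a comes from the maternal copy in neurons. Loss of the paternal genes underlies Prader-Willi syndrome in humans, and loss of maternal UBE3A underlies Angelman syndrome. Clock encodes the DNA-binding partner of BMAL1 in the circadian transcription factor that acts through E-box elements, and Magel2 is known for its rhythmic expression in the suprachiasmatic nucleus, the circadian pacemaker. The arrays measure total transcript and do not tell parental copies apart.

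The start regions of 5 windows are printed, those of Ndn, Magel2 and Nnat, the Snurf window and an upstream Snrpn start. The Snurf window shows why its probes also bear on Snrpn. Each run is the 250 bases before a RefSeq transcription start in build GRCm38.p6, written from 5′ to 3′ on the gene's strand. Capitals mark the letters CGCATGCG, which were picked out after the sequences had been read. The windows of Mkrn3, Ube3a, Peg3 and Meg3, which lack these letters, and the other upstream Snrpn starts, which hold them, are not printed.
Ndn, chr7:62348027-62348276, plus strand: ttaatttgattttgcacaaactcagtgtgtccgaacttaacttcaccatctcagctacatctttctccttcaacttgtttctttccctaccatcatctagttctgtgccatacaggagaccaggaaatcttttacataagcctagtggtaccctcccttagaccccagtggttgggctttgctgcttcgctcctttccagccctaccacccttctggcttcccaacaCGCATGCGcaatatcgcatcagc
Magel2, chr7:62376729-62376978, plus strand: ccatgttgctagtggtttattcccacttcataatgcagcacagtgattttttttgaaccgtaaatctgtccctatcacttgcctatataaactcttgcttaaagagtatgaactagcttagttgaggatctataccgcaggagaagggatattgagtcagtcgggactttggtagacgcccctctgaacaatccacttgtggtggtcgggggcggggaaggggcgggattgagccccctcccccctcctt
Snurf and Snrpn (shared start), chr7:60005200-60005449, minus strand: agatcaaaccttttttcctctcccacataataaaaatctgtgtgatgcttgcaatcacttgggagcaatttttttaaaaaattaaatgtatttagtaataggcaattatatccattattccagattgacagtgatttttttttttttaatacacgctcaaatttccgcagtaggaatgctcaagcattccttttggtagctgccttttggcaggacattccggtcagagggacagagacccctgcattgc
Snrpn (an upstream start), chr7:60047979-60048228, minus strand: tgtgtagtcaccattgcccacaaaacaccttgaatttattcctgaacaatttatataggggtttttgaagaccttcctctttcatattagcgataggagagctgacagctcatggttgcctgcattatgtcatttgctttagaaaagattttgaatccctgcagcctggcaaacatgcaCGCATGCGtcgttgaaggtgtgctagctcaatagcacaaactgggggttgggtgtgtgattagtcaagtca
Nnat, chr2:157559828-157560077, plus strand: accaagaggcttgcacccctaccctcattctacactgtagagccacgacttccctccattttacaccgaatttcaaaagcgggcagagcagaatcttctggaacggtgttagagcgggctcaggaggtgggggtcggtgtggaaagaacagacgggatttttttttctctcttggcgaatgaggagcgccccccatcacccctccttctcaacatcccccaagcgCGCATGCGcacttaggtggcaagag
RefSeq windows matched all 9 gene names, 13 windows in all and 12 distinct ones. The window of Snurf and 1 of 4 windows of Snrpn are the same bases, since both genes share that start, and the annotation assigns the 4 probes of this shared unit to Snurf. In none of the 12 windows were the E-box letters CACGTG found, which 6.02% of all 32851 windows of this length hold, nor CACGTT or its reverse AACGTG, which 3.85% hold. The looser form CANNTG, which reads the same on both strands and includes CACGTG, occurred in 6 of the 12 windows and in 66.2% of all windows. The palindrome CGCATGCG is the core of the site known for the factor NRF1. It occurred in 5 of the 12 (Ndn, Nnat and 3 upstream starts of Snrpn) and in 1.55% of all windows. Those 3 Snrpn windows are near copies of each other around the palindrome, so they are not separate occurrences. All of these are counts of letters within the windows and say nothing of binding.

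The arrays were shallow in signal. Between 4.37% and 8.11% of probes had a detection p under 0.05, the lowest on KO replicate 3 and the highest on WT replicate 1, and median raw signals ranged from 1121.3 on WT replicate 1 to 1990.7 on WT replicate 3. Except on WT replicate 1, these shares are close to the rate at which probes without signal would pass a threshold of 0.05. A detection p just under 0.05 on an array is therefore weak evidence of a transcript. KO replicate 3 correlated with the other arrays at 0.751 to 0.827 across the 3347 tested probes, against 0.860 to 0.924 among the other 4. The 3 probes for Clock were above background on none of the arrays, so they give no check of the genotype labels. Of the parvalbumin interneuron markers on the array, 7 of 15 had a tested probe, and of GABA neuron markers 5 of 12. No excitatory neuron (of 14), microglial (of 10) or endothelial and mural marker (of 10) had one, and astrocyte, oligodendrocyte, other interneuron and blood markers had 1 each, of 10, 9, 12 and 6.

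Of the 25 probes, 12 passed the filter for testing, which asks for a detection p under 0.05 on 2 or more arrays, beside 7.39% of all probes. These 12 covered 7 of the 8 genes. The 7 probes detected on all 5 arrays were those of Ndn and Magel2, 2 of the 4 for Snurf and all 3 for Meg3, beside 2.29% of all probes. The other 13 were detected on no array at all. By array, the number of the 25 detected was 11, 10 and 10 in WT (replicates 1, 2 and 3) and 10 and 8 in KO (replicates 1 and 3). Of the 14 Prader-Willi domain probes, 5, 4 and 5 were detected in WT and 6 and 5 in KO, while of the 11 probes of Peg3, Meg3 and Nnat it was 6, 6 and 5 in WT and 4 and 3 in KO.

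**Figure D1:**
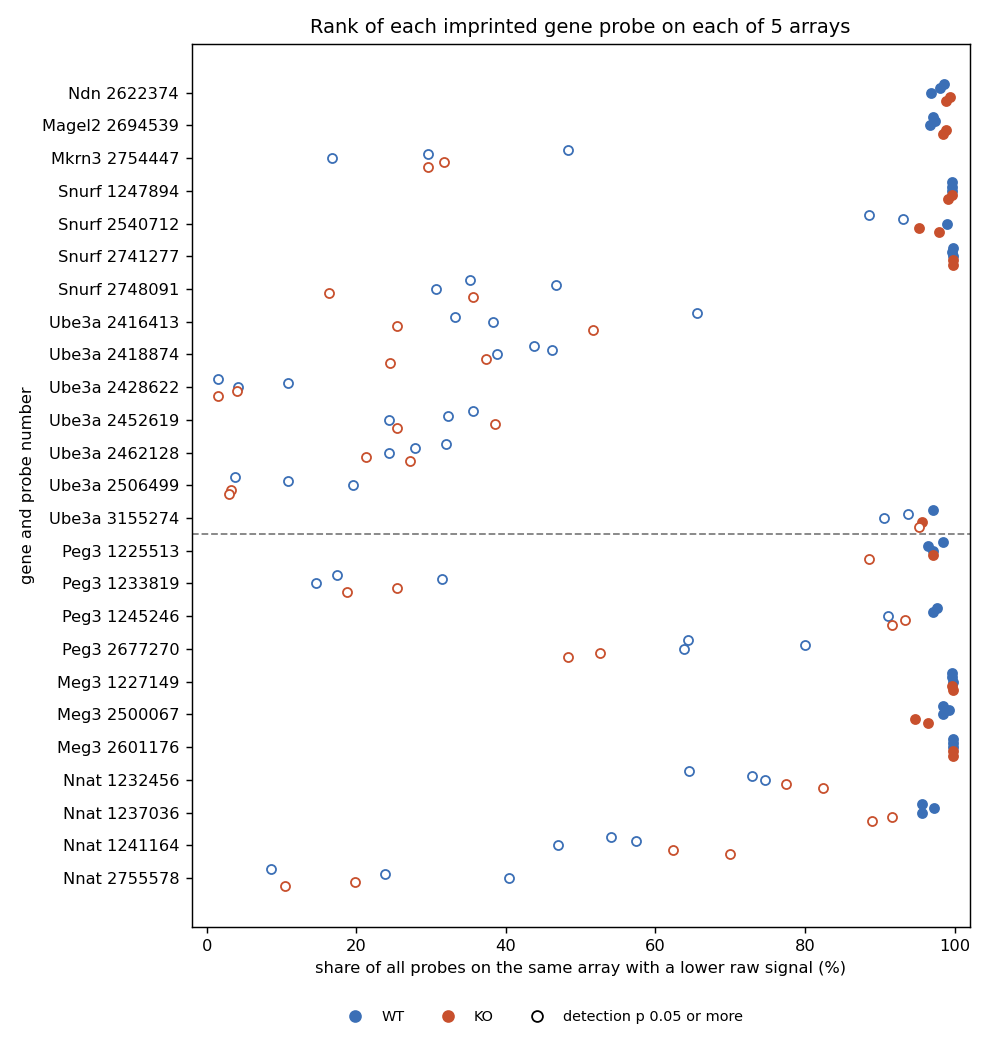
Each row is 1 of the 25 probes, and each point 1 of the 5 arrays (blue WT, orange KO), at the share of all probes on that array with a lower raw signal in percent. Filled points have a detection p under 0.05, open points do not, and the dashed line parts the Prader-Willi domain (above) from Peg3, Meg3 and Nnat. The 7 probes detected throughout sit near the right edge, and 13 probes are open on every array.

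Ndn encodes necdin, a protein of the MAGE family that is abundant in neurons that have left the cell cycle. Its 1 probe, ILMN_2622374, was above background on all 5 arrays, with detection p values from 0 to 0.02137. The raw signal was 2439.8, 3110.7 and 3365.7 in WT, in replicate order, and 4079 and 3188.9 in KO. The raw value of KO replicate 3 thus lay among the WT values, on arrays whose medians differ. Set against the other probes of its own array, which needs no scaling between arrays, Ndn was brighter than 98.6%, 98.1% and 96.8% of probes in WT and than 99.4% and 98.9% in KO. Both KO ranks lay above all 3 WT ranks. The main normalization keeps the order of probes within each array, so these ranks restate its ordering and are no separate check.

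After normalization Ndn read 7.88, 7.63 and 7.37 on the log2 scale in WT and 8.75 and 8.12 in KO. The means were 7.62 ± 0.25 (SD, n = 3) and 8.44 ± 0.45 (SD, n = 2), a difference of 0.81 ± 0.25 (SE). Among all 3347 tested probes 27 others had a difference at least as high. KO replicate 1 carried the higher value: without it the difference was 0.49 with the normalization of all 5 arrays kept, and without KO replicate 3 it was 1.13. The difference was 0.25 after cyclic loess and 0.22 without background correction, and median scaling turned it to -0.53, beside a shift of -0.39 in the median of all tested probes under that scaling.

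Magel2 encodes another MAGE protein, known to act with the ubiquitin ligase TRIM27 and the deubiquitinase USP7 in recycling proteins from endosomes. Probe ILMN_2694539 was likewise above background on all 5 arrays (detection p 0.00214 to 0.02457). The raw signal was 2014.8, 3004.2 and 3351 in WT and 3521 and 3096.1 in KO, and the probe outranked 97.1%, 97.4% and 96.7% of probes in WT and 98.8% and 98.5% in KO. Here too both KO ranks lay above the WT ranks, which again restates the normalised ordering.

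On the normalised log2 scale Magel2 read 7.40, 7.45 and 7.35 in WT and 7.98 and 7.84 in KO. The group means were 7.40 ± 0.051 (SD, n = 3) and 7.91 ± 0.10 (SD, n = 2), a difference of 0.51 ± 0.15 (SE), and 121 other tested probes differed at least as far upward. This was the narrowest WT spread among the 12 tested probes. With the normalization kept, leaving out any 1 array gave 0.44 to 0.58. The difference was 0.11 after cyclic loess and 0.14 without background correction, and under median scaling it was -0.39, level with that scaling's shift of -0.39 for all tested probes.

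The values without WT replicate 1, the array with the most detected probes, differed with the normalization used. When it was left out and the remaining arrays were normalised anew, the difference was 0.36 for Ndn and 0.15 for Magel2. When it was left out and the normalization of all 5 arrays was kept, it was 0.94 for Ndn and 0.51 for Magel2. Among the runs without WT replicate 1, the smaller values were thus seen only where the remaining arrays were normalised anew. With all 5 arrays kept, other settings also gave small values. Ndn was 0.25 after cyclic loess and 0.22 without background correction, and Magel2 was 0.11 and 0.14. What in these steps changed the values was not tested.

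Mkrn3, which encodes a makorin ubiquitin ligase known as a brake on puberty, was not above background on any array with its 1 probe (detection p 0.39316 to 0.78312). It outranked between 16.7% and 48.3% of probes, so no difference can be read from it.

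Snurf encodes a small peptide, and Snrpn, on the same transcript, encodes SmN, a core protein of the spliceosome in neurons. Of the 4 probes, 3 passed the filter, and they did not move together. ILMN_2741277, with a detection p of 0 throughout, read 9.91, 9.46 and 9.67 in WT and 10.01 and 9.64 in KO. The groups overlapped, with a difference of 0.14 ± 0.20 (SE), which was 0.73 after cyclic loess and -1.37 under median scaling. ILMN_1247894 read 9.41, 9.44 and 9.29 in WT and 9.24 and 8.28 in KO, a difference of -0.62 ± 0.28 (SE). Both KO arrays were below WT, KO replicate 1 by little and KO replicate 3 by much more. Without KO replicate 3 the difference was -0.14, and without KO replicate 1 it was -1.10, with the normalization kept. It was -0.068 after cyclic loess, -0.21 without background correction and -1.78 under median scaling.

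Another Snurf probe, ILMN_2540712, read 6.99, 7.13 and 8.18 in WT and 7.24 and 7.59 in KO. It was above background on WT replicate 3 and on both KO arrays only, and its difference of -0.023 ± 0.36 (SE) was far smaller than the spread of the WT arrays. The fourth, ILMN_2748091, was detected on none. Which stretch of the transcript each probe reads is not given here.

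Ube3a encodes a HECT ubiquitin ligase. Of its 7 probes, 6 were above background on no array, with ranks between 1.53% and 65.6% of probes. The seventh, ILMN_3155274, was detected on WT replicate 1 and KO replicate 1, and read 7.40, 7.16 and 7.05 in WT and 7.26 and 7.23 in KO. The groups overlapped, with a difference of 0.044 ± 0.17 (SE). It was -0.18 with age as a covariate and -0.42 under median scaling.

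**Figure D2:**
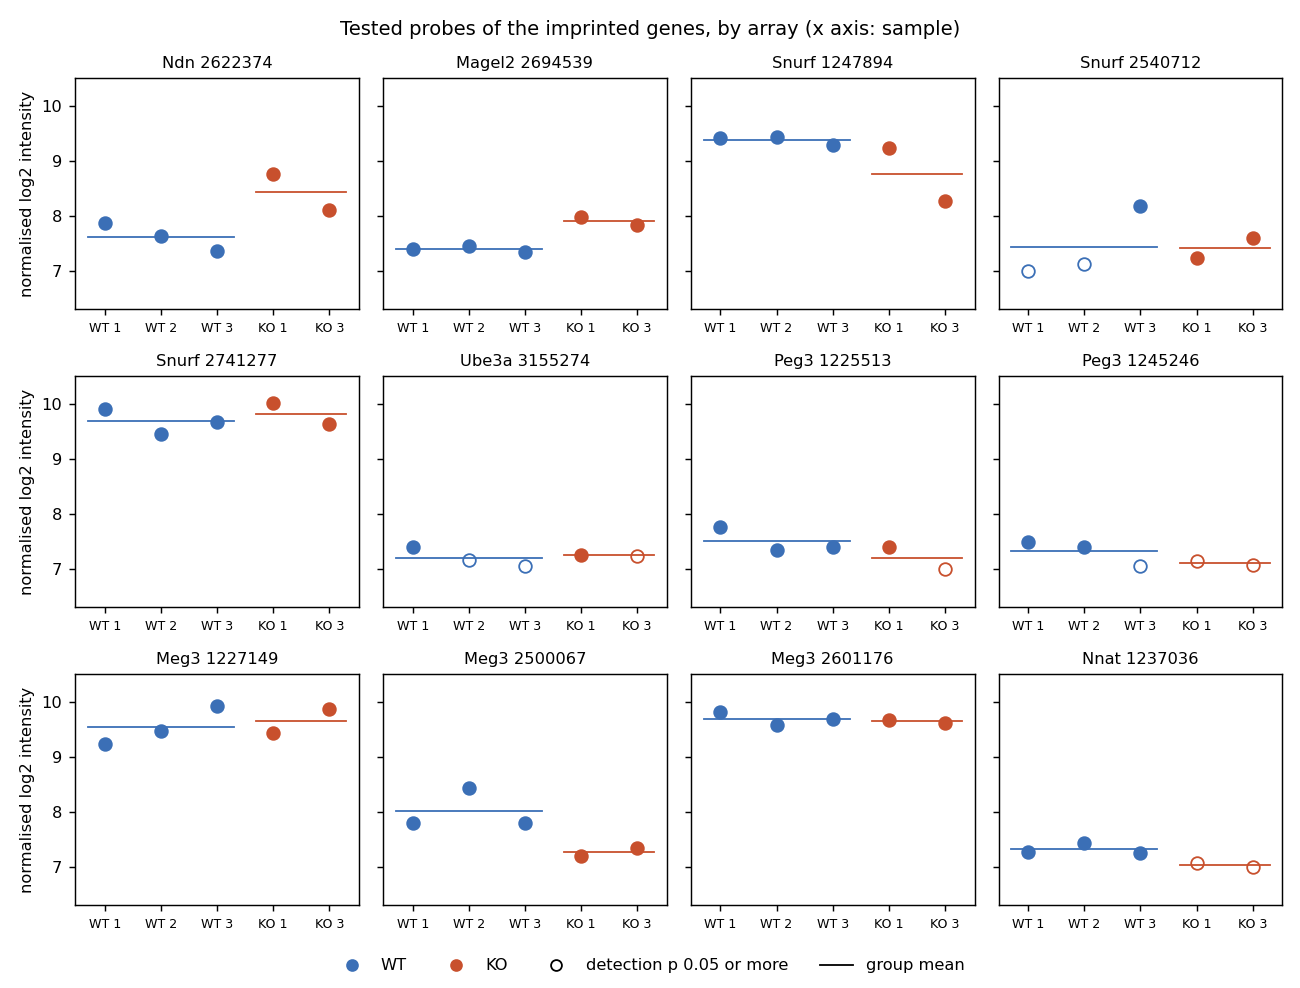
Each panel is 1 of the 12 tested probes and each point 1 array, at its normalised log2 intensity (blue WT, orange KO), with group means as lines and open points where the detection p was 0.05 or more. Both KO points lie above all WT points for Ndn and Magel2, and below them for Snurf ILMN_1247894, Meg3 ILMN_2500067 and Nnat ILMN_1237036, under the main scaling. Under median scaling the Ndn and Magel2 differences were -0.53 and -0.39.

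Peg3 encodes a zinc finger protein expressed from the paternal copy. Of its 4 probes, 2 passed the filter. ILMN_1225513 read 7.76, 7.34 and 7.40 in WT and 7.40 and 6.99 in KO, a difference of -0.30 ± 0.21 (SE) with KO replicate 1 inside the WT range and KO replicate 3 below background. Without KO replicate 3 it was -0.099, with the normalization kept, and without WT replicate 1 after new normalization it was -0.10. ILMN_1245246 read 7.50, 7.40 and 7.06 in WT and 7.14 and 7.08 in KO, where neither array was above background. Against the lowest signals detected on the KO arrays the WT mean was at least 1.07-fold higher, though WT replicate 3 was itself below background. The measured values overlapped between groups, so this bound holds for the means alone. The measured difference of -0.21 was -0.060 without WT replicate 1 after new normalization. The remaining 2 Peg3 probes were below background on all arrays.

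Meg3 is a long noncoding RNA expressed from the maternal copy of the Dlk1-Dio3 region, and all 3 of its probes were detected on every array. ILMN_2601176 read 9.81, 9.57 and 9.68 in WT and 9.67 and 9.62 in KO, a difference of -0.046 ± 0.16 (SE). ILMN_1227149 read 9.24, 9.46 and 9.93 in WT and 9.44 and 9.87 in KO, a difference of 0.11 ± 0.25 (SE). For both, the KO arrays lay within the WT range under the main scaling. After cyclic loess their differences were 0.37 and 0.28. ILMN_2500067 stood apart from them, with 7.80, 8.43 and 7.79 in WT and 7.20 and 7.34 in KO.

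ILMN_2500067 differed by -0.74 ± 0.23 (SE), and 20 other tested probes differed at least as far downward. It outranked 98.4% to 99.2% of probes in WT and 94.7% and 96.5% in KO, where its detection p was 0.0438 and 0.03312. Its difference was below 0 in all 23 alternatives, from -1.03 under median scaling to -0.23 without background correction. With the normalization kept it was -0.81 without KO replicate 3 and -0.53 without WT replicate 2, and without WT replicate 1 after new normalization it was -0.31. Of the 3 Meg3 probes this was the only one lower on both KO arrays under the main scaling. Under median scaling the other probes lay further down, at -1.62 (ILMN_1227149) and -1.64 (ILMN_2601176), so which of them stands apart depends on the scaling. The positions of the probes along the transcript are not given here.

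Nnat encodes neuronatin, a small membrane protein of the endoplasmic reticulum expressed from the paternal copy. ILMN_1237036, the 1 of 4 probes that passed, read 7.26, 7.44 and 7.26 in WT and 7.08 and 7.01 in KO, with both KO arrays lower. Its signal passed the detection threshold in all 3 WT samples and in neither KO sample, so it is given as at least 1.07-fold lower in KO. The measured difference was -0.28 ± 0.16 (SE). It was below 0 in all 21 alternatives that gave a value, from -0.56 on the authors' processed values to -0.15 after cyclic loess. Without WT replicate 1 after new normalization it was -0.17. Passing the filter through WT arrays alone favours a value below 0. The alternatives also reuse the same arrays, so their shared sign is no separate support. The other 3 Nnat probes were at background everywhere. ILMN_1232456 differed by 0.10 and ILMN_1241164 by 0.086, each with both KO arrays above WT, and ILMN_2755578 by -0.041. No difference can be read from signals at background.

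The genotype comparison addresses how sorted parvalbumin cells of Clock-/- mice differ from those of Clock+/+ mice. Here limma's test called none of the 3347 tested probes at an adjusted p under 0.05 (0% in either direction, smallest adjusted p 0.801), the 12 imprinted gene probes included. At an unadjusted p under 0.05 limma had 198 probes, and the pooled-variance test of each probe also called 0, with 157. Both KO arrays lay above all 3 WT arrays for 2 of the 12 probes (Ndn and Magel2), beside 11.2% of all tested probes. Both lay below for 3 of the 12 (Snurf ILMN_1247894, Meg3 ILMN_2500067 and Nnat ILMN_1237036), beside 10.6%. The groups did not overlap for these 5, beside 21.8% of all tested probes. With KO replicate 3 left out, these were 3 and 3 of 12, beside 25.8% and 19.7%. The earlier results that led to Ndn and Magel2 come from this same contrast, so nothing is read from these counts.

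Over all 25 probes, background ones included, the median difference was -0.020 for the Prader-Willi domain and -0.046 for Peg3, Meg3 and Nnat. Among tested probes the 2 sets were further apart. Over the 6 tested Prader-Willi probes the median difference was 0.092, from -0.62 (Snurf ILMN_1247894) to 0.81 (Ndn), with 4 above 0. Ndn (0.81) and Magel2 (0.51), whose values led to the set, were the highest of the 6. The other Prader-Willi probes tested differed by -0.62, -0.023 and 0.14 (Snurf) and 0.044 (Ube3a). The median of 0.092 is therefore no separate support for a difference between the regions. Over the 6 tested probes of Peg3, Meg3 and Nnat it was -0.24, from -0.74 to 0.11, with 1 above 0. Of these 6, Nnat ILMN_1237036 and Peg3 ILMN_1245246 passed the filter through WT arrays alone, which favours a value below 0, and of the 5 probes that did not pass 3 lay above 0. The median of all tested probes was 0.0048. The 2 sets overlap, and probes of 1 gene share a transcript, so no test of the sets against each other is given.

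By array, the median deviation of the 6 Prader-Willi probes from their WT means was 0.19 on KO replicate 1 and 0.092 on KO replicate 3, against -0.072 to 0.11 on the WT arrays. KO replicate 3 lay inside the WT range. For the 6 probes of Peg3, Meg3 and Nnat it was -0.14 and -0.28 on the KO arrays, against -0.080 to 0.034 in WT, so both lay below. Under median scaling the medians were -0.47 and -0.90, beside the shift of -0.39 for all tested probes. The 7 probes detected on all 5 arrays gave 0.33 for the Prader-Willi domain (4 probes) and -0.046 for Meg3 (3 probes). Ndn and Magel2, whose values led to the set, are among those 4 and among the 6 Prader-Willi probes above.

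**Figure D3:**
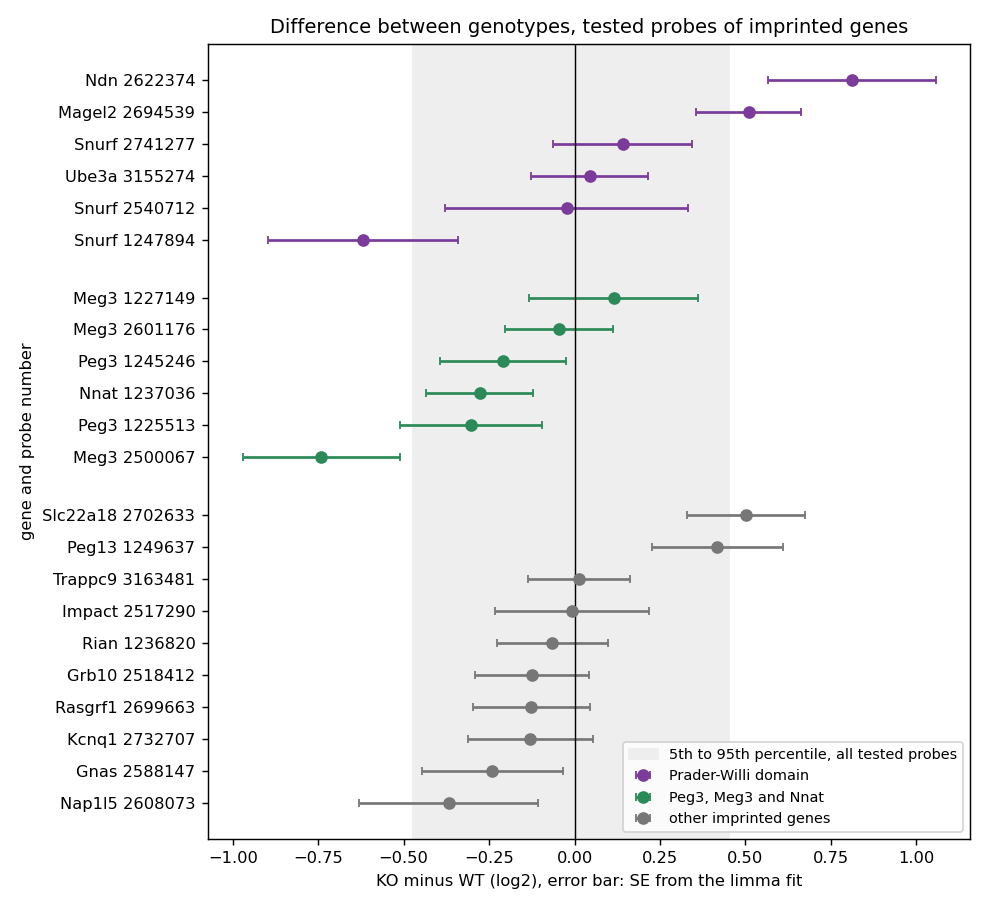
Each point is the KO minus WT difference of 1 tested probe on the log2 scale with its SE, for the Prader-Willi domain (purple), Peg3, Meg3 and Nnat (green) and other imprinted genes (grey). The shaded band runs from the 5th to the 95th percentile of all tested probes, -0.47 to 0.45. Ndn, Magel2, Snurf ILMN_1247894, Meg3 ILMN_2500067 and Slc22a18 have their points outside it. Under median scaling Ndn and Magel2 lie at -0.53 and -0.39.

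Among 50 other imprinted genes listed, 44 had a probe and 10 had a tested probe, none of which was called in either direction. Their median difference was -0.094, with 3 above 0. The probe of Slc22a18, an organic cation transporter gene of the Kcnq1 domain, read 7.27, 7.04 and 7.28 in WT and 7.83 and 7.57 in KO, a difference of 0.50. That of Peg13, a noncoding RNA expressed from the paternal copy, read 7.32, 7.53 and 7.07 in WT and 7.84 and 7.61 in KO, a difference of 0.42. For both, the KO arrays lay above WT, as they did for 11.2% of all tested probes. Each was above background on both KO arrays and on 2 WT arrays.

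The remaining 8 had overlapping groups. Trappc9, in whose intron Peg13 lies, differed by 0.013, Impact by -0.0076 and the noncoding RNA Rian, a neighbour of Meg3, by -0.065. Rasgrf1, a guanine nucleotide exchange factor gene of neurons, differed by -0.13, Gnas, of the stimulatory G protein, by -0.24 and Nap1l5 by -0.37. Kcnq1 and Grb10 were above background on no KO array, and no bound above 1-fold could be set for them. Of 13 other genes in or beside the Prader-Willi domain, 9 had a probe and none passed the filter.

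Relatives of the MAGE genes Ndn and Magel2 had differences below 0. Maged1, a MAGE gene of neurons, read 8.54, 8.25 and 7.55 in WT and 7.65 and 7.05 in KO, a difference of -0.76, and Magee1 differed by -0.47. The groups overlapped for both. Usp7, the partner of Magel2, was above background in WT only, at least 1.08-fold lower in KO. It passed the filter through WT arrays alone, which favours a value below 0. Of the spliceosome genes related to Snrpn, Snrpb, which encodes the close relative of SmN used outside neurons, read 8.76, 8.74 and 8.54 in WT and 8.23 and 10.64 in KO, so its 2 KO arrays lay on either side of WT. Snrpa differed by 0.14, and for Snrnp70 no bound above 1-fold could be set.

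Among HECT ligases related to Ube3a, Herc1 differed by 0.32 with both KO arrays above WT and Herc3 by -0.22 with both below. Over all tested probes these shares were 11.2% above and 10.6% below. Nedd4l was at least 1.05-fold lower in KO, though it passed the filter through WT arrays alone, which favours a value below 0. Of the makorin genes related to Mkrn3, Mkrn2 was below background on both KO arrays and allowed no bound above 1-fold. None of the tested members of the MAGE list (5 of 10 genes with a probe, Ndn and Magel2 included), the spliceosome list (3 of 10), the HECT list (4 of 15) or the makorin list (1 of 3) was called.

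The tested probes whose values across the 5 arrays were most like those of Ndn, by the root mean square difference of log2 values centred on each probe's own mean, were those of Chd8 (0.19), Ube4a (0.23) and Umps (0.23). For Magel2 they were Gle1 (0.067), Adamts6 (0.072) and Dlx6os2 (0.073). For Snurf ILMN_1247894, the probe lowest on KO replicate 3, Txndc15 (0.041), 6430548M08Rik (0.068) and Cplx1 (0.078) came closest. For Snurf ILMN_2741277, whose groups overlapped, they were Pam16 (0.046), Kcna6 (0.063) and Spag6 (0.077). For Meg3 ILMN_2500067, lower on both KO arrays, they were Tapbp (0.13), Tmem178b (0.16) and Sfxn3 (0.16). For Meg3 ILMN_1227149 they were Scgb2b27 (0.032), Ncstn (0.039) and Lpp (0.045). For Meg3 ILMN_2601176 they were Erich5 (0.025), Atp6v0a1 (0.037) and Pbrm1 (0.040). These are likenesses over 5 arrays among 3347 probes and carry no test.

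Most tested markers of the sorted cells were lower in KO, and they also differed between the KO arrays. Pvalb read 8.88, 9.18 and 8.79 in WT and 8.22 and 7.19 in KO. Its difference of -1.24 was the lowest of all 3347 tested probes, though it was not called. Of the tested probes, 9 of 10 for parvalbumin markers (median -0.37) and 6 of 6 for GABA neuron markers (median -0.53) lay below 0. The median for Peg3, Meg3 and Nnat was -0.24. Parvalbumin interneuron marker genes above background numbered 10, 7 and 7 of 15 in WT and 7 and 4 on KO replicates 1 and 3, and their summed normalised intensity ran from 5116 to 5538 in WT and was 5016 and 3796 in KO. GABA neuron markers summed to 4920 to 5456 in WT and to 5198 and 3729 in KO. For excitatory neuron markers the sum was 3060 to 3087 in WT and 3013 and 3072 in KO, with 0 of 14 genes detected in KO and 0, 0 and 1 in WT. None of the 31 excitatory probes passed the filter, so that sum is nearly all background and cannot show a change. The other sums also hold background, since 10 of 27 parvalbumin probes and 6 of 25 GABA neuron probes passed. Fewer cells of a type and less RNA per cell cannot be told apart here. Of the 12 tested probes, only Snurf ILMN_1247894, Peg3 ILMN_1225513 and Nnat ILMN_1237036 were lowest on KO replicate 3, as the parvalbumin and GABA neuron sums were. All the others were lowest on another array, such as Meg3 ILMN_2500067 on KO replicate 1 and Ndn and Magel2 on WT replicate 3. The share of all tested probes lowest on KO replicate 3 was not counted. The median deviation of the Peg3, Meg3 and Nnat probes was furthest down on KO replicate 3 (-0.28). The part of that array's makeup in these differences was not tested.

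**Figure D4:**
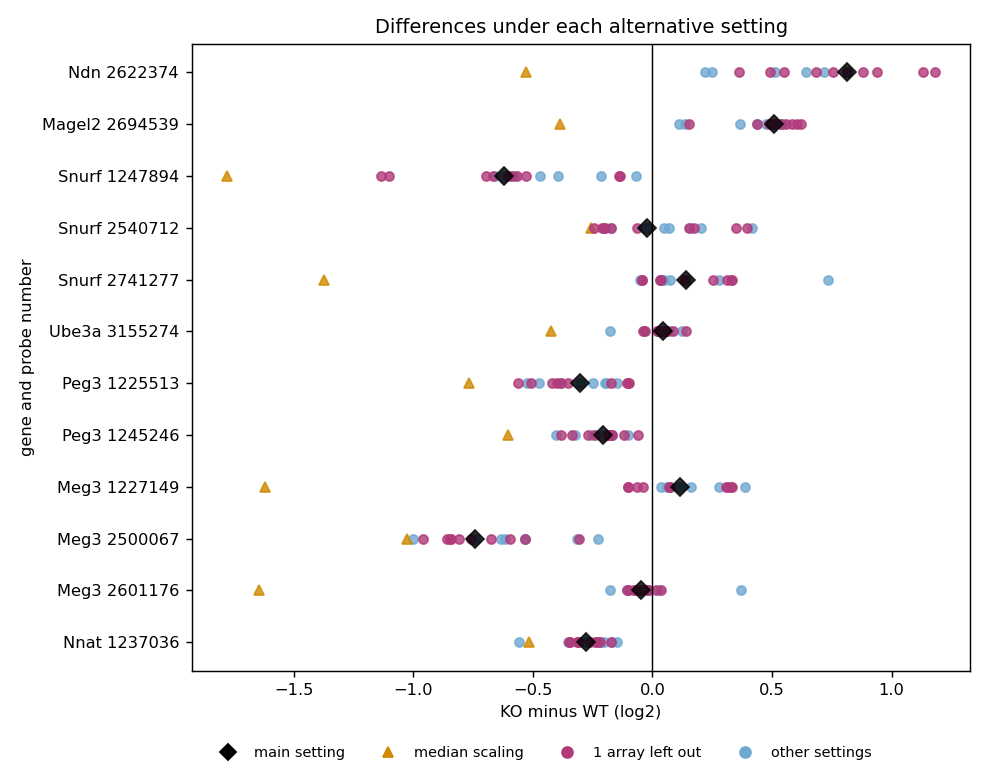
Each row is 1 tested probe and each point its KO minus WT difference on the log2 scale under the main setting (black diamond), median scaling (orange triangle), with 1 array left out (magenta) or under another setting (blue). Ndn and Magel2 stay above 0 except under median scaling, where they lie at -0.53 and -0.39. Meg3 ILMN_2500067, Nnat ILMN_1237036, Snurf ILMN_1247894 and both Peg3 probes stay below 0 throughout, while the other 5 probes fall on both sides. Nnat ILMN_1237036 and Peg3 ILMN_1245246 passed the filter through WT arrays alone, which favours values below 0.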

How the data were processed

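RNA was amplified with a NuGEN Ovation PicoSL kit and biotin-labelled, per the labels' protocols. The deposited table gives, per the file headers, an intensity on a linear scale and a detection p-value for each probe and array; these intensities were not normalized, and their medians differ between arrays. A second deposited table holds the authors' processed intensity values, whose array medians lie between -2 and -0.1 and whose rank correlation with the raw values is 1 on each array. GenomeStudio was used, per the submitters' processing notes, and further steps are not given in these sources.

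The neqc function of limma 3.58.1 (R 4.3.3; offset 16) corrected the background, quantile normalised the intensities and took log2. The filter for testing kept 3347 probes detected (p under 0.05) on 2 or more arrays. They were fitted by lmFit and eBayes (two-sided), and p-values were adjusted by the Benjamini-Hochberg method across all of them. Symbols came from the platform annotation: 34885 probes had 1 symbol, 18 several and 10378 none. Of the probes with 1 symbol, 34807 were matched by Entrez number to the RefSeq table of GRCm38.p6 and took the symbol given there, changed or not. Where all arrays of a group lacked signal above background, the fold is a bound. Dim values of that group were raised to the lowest detected signal of their array. The bound compares group means and takes no account of the spread between samples, and none is given where it was under 1. The number of arrays limits the precision.

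The members, gene lists, tests and alternatives were chosen with earlier results of these data known. All probes of the 9 named genes were taken. Other genes were named where a tested probe belonged to the listed imprinted or neighbouring genes, with up to 3 members of smallest p from each list of related genes, Clock and Pvalb. The 3 most similar probes are given for each of the 7 probes detected on all 5 arrays. Letters searched in promoters were chosen after the arrays had been analysed. The alternatives were other background, scaling and offset settings, the authors' processed values (raised to at least 1), other filters and variance models, weights for arrays, a block for the replicate number, age as a covariate, and each array left out, with the remaining arrays normalised anew or with the normalization kept. A lone KO array left by this is taken to vary as WT does.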

Additional observations from a re-analysis of the deposited data

How the results depend on the processing

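No probe of the 9 named genes was called under any setting run; calls among the other imprinted genes were tallied under the main setting only. Over all tested probes the count of calls was 0 in the settings run, except without KO replicate 1, where 27 were called after new normalization and 33 with the normalization kept, so the range with 1 array left out was 0 to 33. With the replicate number as a block the count was 0, and the medians were 0.026 for the Prader-Willi domain and -0.19 for Peg3, Meg3 and Nnat. Samples share only a number: deviations of same-numbered samples from their group means correlated at 0.202 (replicate 1) and 0.129 (replicate 3) across 3347 probes, over 2 pairs.

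The median difference of the Prader-Willi domain probes (0.092) was -0.47 under median scaling, -0.020 with no filter on dim probes, 0.33 with detection p under 0.01 or on all 5 arrays, 0.22 with array weights and 0.18 with age as a covariate, and with 1 array left out it ran from 0.026 to 0.26. It was 0.20 without WT replicate 1 and 0.24 without WT replicate 3, both with the normalization kept, 0.028 without WT replicate 2 after new normalization, and 0.19 without KO replicate 3 with it kept. That of Peg3, Meg3 and Nnat (-0.24) was -0.12 without background correction, -0.90 under median scaling, -0.16 after cyclic loess, -0.40 on the authors' processed values, and -0.046 with no filter, with detection p under 0.01 or on all 5 arrays. With 1 array left out it ran from -0.36 to -0.082, nearest 0 without WT replicate 1 after new normalization. With the normalization kept it was -0.15 without WT replicate 1, -0.32 without WT replicate 3 and -0.14 without KO replicate 3. The filters changed which probes entered, and for the other settings the cause was not tested. Ndn and Magel2, whose values led to the set, entered the Prader-Willi median under every setting. The median over the 3347 probes itself shifted by -0.39 under median scaling.

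Probes detected on at least 2 arrays were 12 of 25, and 7 with detection p under 0.01. As alternatives chosen after seeing the data, each array was left out in turn. The count was then 10 to 12. Probes with all KO arrays above all WT arrays were 2 to 3 of 12, beside 14.5% to 28.4% of all tested probes, and those below were 3 to 5, beside 13.7% to 32.1%. The 5 came without WT replicate 2, beside 13.7%. Signals close to background limit what the 13 undetected probes can show.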
